A study of Mus musculus with 7 samples.

Results

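Chaperone genes were followed in the feeder-free mouse embryonic stem cell line CCE during differentiation with retinoic acid. The genes were taken by symbol: HSP90 genes (Hsp90), the numbered Hspa, Hspb, Hspd, Hspe and Hsph genes, J proteins (Dnaj) and the CCT chaperonin subunits Cct2 to Cct8. The rule found 62 of the 12071 gene symbols of the deposited table, with 79 of its 15296 transcripts, and each symbol was read from its transcript with the highest mean. On days 1 to 6 the cells were without leukemia inhibitory factor (LIF), a cytokine that keeps mouse stem cells undifferentiated, and with 5 µM retinoic acid, a vitamin A derivative that activates nuclear receptors. The day 0 cells kept LIF and are labelled with DMSO, the vehicle. All cells grew in 15% serum in the same basal medium. Each day had 1 library of ribosome-depleted total RNA, so the effects of LIF withdrawal, of retinoic acid and of the days in culture cannot be told apart.

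Chaperones bind unfolded proteins and help them reach or keep their folded state. HSP70 proteins work in cycles with J proteins, which deliver clients and start ATP hydrolysis, and with nucleotide exchange factors, which release them. HSP90 acts later on selected clients with its own cochaperones, and CCT is a ring in the cytosol that folds actin and tubulin. The endoplasmic reticulum (ER) has its own HSP70, HSP90 and J proteins for secreted and membrane proteins, and mitochondria have an HSP70 for import and the HSP60 and HSP10 chaperonin. By compartment, 34 of the 62 genes were assigned to the cytosol and nucleus, 14 to the ER or its membrane and 9 to mitochondria. The other 5 (Dnajc12, Dnajc13, Dnajc24, Dnajc27 and Hspb11) were kept as a separate group, which may include cytosolic proteins.

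Reads recovered from the deposited values, added over all 15296 transcripts, came to 10280938, 11462785, 11198956, 9911246, 17923852, 16503844 and 7194325 on days 0 to 6. Reads that fit several transcripts of a gene may count more than once in these sums. With 1 transcript per symbol the sum was 8240527 on day 0 and 6096559 on day 6. Levels are log2 of scaled reads, so 1 unit is a doubling, and they are divided by transcript length only where stated. The median of the 7242 genes above a filter on low levels stood 0.12 to 0.19 above day 0 on days 1 to 5 and 0.86 below it on day 6. The day 6 library stands apart: its difference from day 5 falls with transcript length (Spearman rho −0.78 across genes), so tests use days 0 to 5. Days 1 to 5 also differed from day 0 with length, less strongly and in the other direction (rho 0.26, 0.28, 0.24, 0.27 and 0.25). The ER chaperone genes above the filter had a median length of 3998 nt and the cytosolic ones 2189.5 nt, beside 3043.5 nt for all genes. Stem cell markers, high on day 0, were lower on day 5 for 8 of 8 genes, and their summed level was 11.11 on day 5, against 16.29 on day 0. Markers of extraembryonic endoderm were higher for 9 of 9, with a sum of 17.64 on day 5 and 13.52 on day 0. Of the fibroblast markers, 6 of 7 were higher (sum 14.25 on day 5, against 9.82 on day 0), as were 3 of 4 neural progenitor markers (12.10 and 9.35) and 3 of 3 neuron markers (11.22 and 10.94). Whether a marker was absent cannot be read here, since recovered reads start at 1 by construction. The fewest marker reads were 9 on day 0 (Sox17) and 19 on day 5 (Thy1). On day 6 the lowest marker level was 1.46, shared by Nanog and Sox1. The part of changing cell types in the chaperone results was not tested.

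Over days 0 to 5 the cytosolic and mitochondrial chaperone genes above the filter mostly declined while those of the ER did not. The line of each gene on day was tested with limma, with Benjamini-Hochberg adjustment over the 7242 genes kept. The 40 chaperone genes above the filter included 9 that rose and 22 that fell, or 22.5% and 55.0%, and 9 that were not called. Of all genes kept, 25.7% rose and 26.8% fell, 52.5% in all. The median slope of the chaperone genes was −0.15 log2 units per day, beside −0.0012 for all genes. In bulk RNA, fewer cells of a type and less RNA per cell cannot be told apart. In the cytosol and nucleus 3 of 24 rose and 17 fell (median slope −0.20), in the ER 6 of 10 rose and 0 fell (median 0.17), and in mitochondria 0 of 5 rose and 5 fell (median −0.24). With no filter, which takes in all 62 symbols, 18 rose and 23 fell, while 25.9% of all 12071 symbols rose and 22.1% fell. By compartment, 8 of 34 cytosolic genes then rose and 17 fell, 9 of 14 ER genes rose and 0 fell, and 0 of 9 mitochondrial genes rose and 6 fell.

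**Figure D1:**
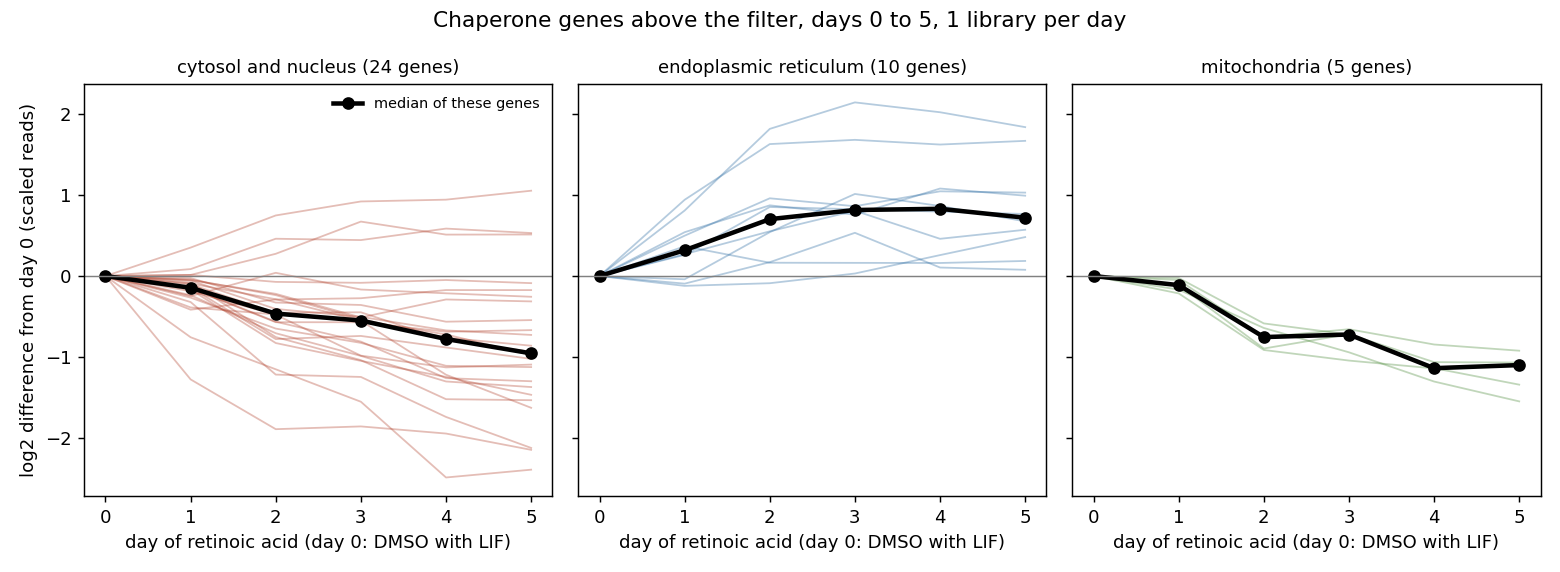
Log2 difference of each chaperone gene from day 0 (y axis) by day (x axis), in 3 panels by compartment, for the 39 genes above the filter that have one of these compartments. Thin lines are genes and the thick line is their median; on day 5 the medians stand at −0.96 for the cytosol and nucleus, 0.72 for the ER and −1.10 for mitochondria.

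Among the chaperone genes, the rising and the falling calls differed in how far they rested on single libraries. Leaving out each library in turn, the rising count was 1 without day 0, 3 without day 1, 8 without day 2, 7 without day 3, 1 without day 4 and 8 without day 5. Calls over all genes kept moved as well, with 14.3%, 20.8%, 27.7%, 22.6%, 15.6% and 22.3% rising in the same order. The falling count of the chaperone genes stayed between 15 (without day 0) and 22. Beside it, 17.7%, 20.9%, 27.1%, 23.9%, 17.1% and 23.5% of all genes kept fell. Of the 17 cytosolic genes that fell, 13 passed in each of the 6 refits, as did 2 of the 5 mitochondrial genes. None of the 9 rising genes passed in all 6. How many of all genes kept passed in every refit was not counted. These counts, and those of the lists below, thus have no share of all genes beside them. With the libraries centred on their medians 5 rose and 22 fell, beside 22.4% and 32.4% of all genes kept. With a correction for transcript length 8 rose and 22 fell, beside 25.8% and 23.6%. The median slopes were then −0.17 for cytosolic, 0.14 for ER and −0.22 for mitochondrial genes. With 1 library per day, the p-values measure only the scatter of single libraries about a line.

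**Figure D2:**
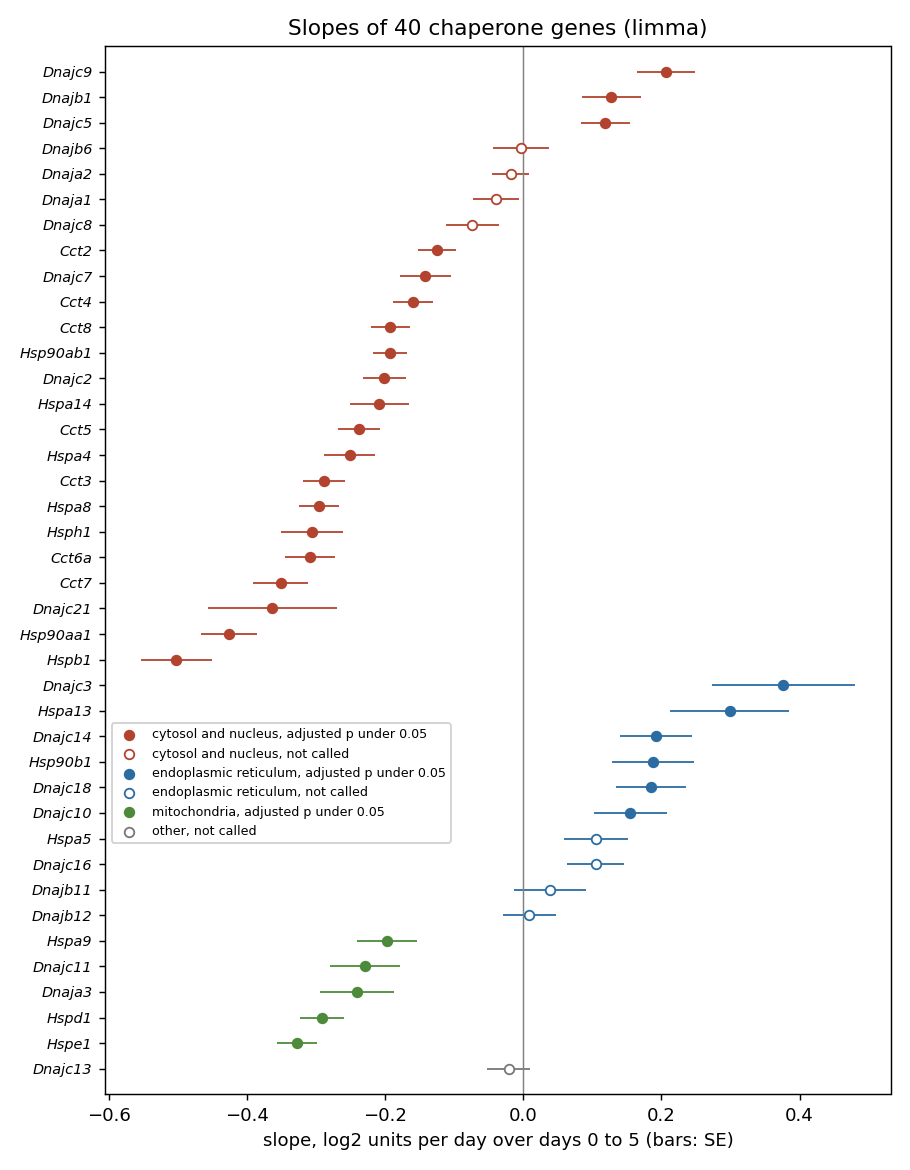
Slope of each of the 40 chaperone genes over days 0 to 5 (x axis, log2 units per day, bars are the standard error), with genes on the y axis grouped by compartment. Filled points passed the limma test and open points did not; the slopes run from −0.50 for Hspb1 to 0.38 for Dnajc3.

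The ER genes are described first. Promoter windows of 250 bases before each start site were read from RefSeq (GRCm38.p6), which matched 50 of the 62 genes by symbol. Hspa8, Hsp90aa1, Hsp90ab1, Cct4, Dnajc2, Dnajc5, Hspa13, Dnajc18, Hspa9, Dnajc11, Dnajc12 and Dnajc30 had no window and were not searched. The ER stress element, CCAAT, 9 bases of any kind and CCACG on either strand, was in 37 of 32851 promoters, or 0.113%. Counted by gene it was in 35 of 27025, or 0.130%. Among the chaperone genes it was in Hspa5, Hsp90b1 and Dnajc3, 3 of the 12 ER genes with a window. They are shown because they hold the best known stress-responsive sequence of ER chaperones. Capitals mark the match, each gene is read 5′ to 3′ on its own strand, and the second match of Hsp90b1 is on the opposite strand. A match describes letters in the window and says nothing of binding.
Hspa5 (chr2:34771995-34772073, + strand): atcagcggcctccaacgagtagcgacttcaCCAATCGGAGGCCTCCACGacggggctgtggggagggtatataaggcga
Dnajc3 (chr14:118937797-118937875, + strand): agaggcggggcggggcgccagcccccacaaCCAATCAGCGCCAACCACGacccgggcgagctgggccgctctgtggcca
Hsp90b1 (chr10:86705503-86705686, − strand): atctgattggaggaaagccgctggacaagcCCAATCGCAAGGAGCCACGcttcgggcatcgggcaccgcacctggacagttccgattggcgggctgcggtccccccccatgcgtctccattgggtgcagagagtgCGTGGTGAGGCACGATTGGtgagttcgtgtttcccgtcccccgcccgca

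Dnajc3, a luminal J protein that partners the ER HSP70, had levels of 9.07, 9.88, 10.89, 11.22, 11.09 and 10.91 on days 0 to 5. It had its lowest level on day 0, climbed to day 3 and was slightly lower after. It rose by 0.38 ± 0.10 log2 units per day (SE; limma adjusted p = 0.0226) and was 3.59-fold higher on day 5 than on day 0. Hspa13, an HSP70 relative of the ER, had levels of 8.42, 9.36, 10.05, 10.10, 10.04 and 10.09. Its level hardly differed among days 2 to 5, all above days 0 and 1. It rose by 0.30 ± 0.086 per day (limma adjusted p = 0.0266), and was 3.19-fold higher on day 5 than on day 0.

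Hsp90b1, the ER HSP90 also known as GRP94, had levels of 13.22, 13.18, 13.76, 14.24, 14.09 and 13.90. Days 0 and 1 were alike, and the highest level was that of day 3. It rose by 0.19 ± 0.060 per day (limma adjusted p = 0.0372), and day 5 was 1.60-fold above day 0. Hspa5, the main ER HSP70 known as BiP, had levels of 13.30, 13.57, 13.85, 14.10, 13.76 and 13.87. All 5 later days were above day 0 and day 3 was again the highest, but the line did not pass (slope 0.11 ± 0.047, limma adjusted p = 0.0986). Its day 5 level was 1.49-fold that of day 0, with a counting interval of 0.53 to 0.62 on a log2 difference of 0.57. The quantile-normalized libraries gave Hspa5 a slope of 0.16 that passed, and its adjusted p over the scaling and filter alternatives ran between 0.025 and 0.191.

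Of the other ER genes kept, Dnajc14 and Dnajc18, J proteins of the ER membrane, and Dnajc10, a disulfide reductase with a J domain, rose by 0.19 ± 0.052, 0.19 ± 0.051 and 0.15 ± 0.053 per day (limma adjusted p = 0.0222, 0.0231 and 0.0462). Dnajc10 was at 10.34 on day 0, 10.60 on day 1 and between 11.11 and 11.20 on days 2 to 5. Dnajb11, a soluble luminal J protein, had a slope of 0.038 ± 0.052, and Dnajb12, a membrane J protein, one of 0.0089 ± 0.039 that turned negative with median-centred or quantile-normalized libraries. Dnajc16 had a slope of 0.10 ± 0.041 (limma adjusted p = 0.0698). The number of rising ER genes was 6, but 2 without day 1, 5 without day 3 and 0 without day 4. Without day 0 it was 1, Dnajc16, which is not among the 6. Of all genes kept, 20.8%, 22.6%, 15.6% and 14.3% rose in those 4 refits. The ER count was 4 with median-centred libraries, where Hsp90b1 (0.16) and Dnajc10 (0.12) were not called. With quantile-normalized libraries it was 5, while 21.6% of all genes kept rose. There Dnajc10 (0.15) and Dnajc18 (0.10) were not called and Hspa5 was. Dnajc10 was not called with the length correction either (0.14). Hspa13, Hsp90b1 and Dnajc3 each missed the threshold without day 0, day 1 or day 4, with slopes of 0.15, 0.32 and 0.31 for Hspa13, 0.18, 0.16 and 0.18 for Hsp90b1, and 0.23, 0.37 and 0.37 for Dnajc3. Dnajc14 missed it without day 0 or day 4 (0.12 and 0.19), Dnajc18 likewise (0.11 and 0.17), and Dnajc10 without day 0, day 1, day 3 or day 4 (0.095, 0.14, 0.15 and 0.16). All 10 slopes stayed above 0 in the refits, except 1 of 10 without day 0.

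Of 26 listed ER folding enzymes and lectins kept, 17 rose and 2 fell (median slope 0.26), beside 25.7% rising and 26.8% falling of all genes kept. The largest rises were those of Serpinh1, the collagen chaperone HSP47 (slope 1.03, with 15.09 on day 5, against 10.19 on day 0), Pdia5, a disulfide isomerase (0.47), Calu, a calcium-binding protein (0.45), and Fkbp9, a prolyl isomerase (0.44). Sdf2l1 and Creld2, soluble ER proteins known as stress-induced, fell by 0.31 and 0.25 per day. Of 11 ER stress sensors and factors kept, 3 rose and 0 fell, and the number rising is near the 25.7% of all genes kept. The 3 were Creb3l2 (1.06) and Creb3l1 (0.65), membrane-bound transcription factors, and Eif2ak3 (0.16), the sensor kinase PERK, which did not pass without day 0 or day 4 (highest adjusted p over the refits 0.0825). Xbp1, a main transcription factor of the response, had a slope of 0.070 ± 0.047 and Atf4 one of −0.11 ± 0.039, and neither passed, though Atf4 was called as falling without day 0 and with median-centred libraries. The 17 rising folding genes were 12 without day 0, 15 without day 1 and 14 without day 4, and 12 of them passed in every refit. Of all genes kept, 14.3%, 20.8% and 15.6% rose in the same 3 refits. The ER stress element was in 4 of the 22 folding genes with a window.

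Among cytosolic HSP90 and HSP70 genes, each of those kept fell. Hspa8 (chr9:40609355-40613282 in mm9), the constitutive HSP70, had levels of 16.79, 16.56, 16.09, 15.80, 15.49 and 15.42 on days 0 to 5. Each day was below the one before. It fell by 0.30 ± 0.029 per day (limma adjusted p = 0.00215), and day 5 was 2.59-fold below day 0. Hsp90aa1 (chr12:111929245-111934605), the stress-inducible HSP90, had levels of 15.70, 15.38, 14.48, 14.45, 13.96 and 13.57. Its main drops were into day 2 and after day 3. It fell by 0.43 ± 0.041 per day (limma adjusted p = 0.00202), 4.37-fold in all by day 5. Hsp90ab1 (chr17:45704726-45710210), the constitutive HSP90, had levels of 16.41, 16.36, 16.17, 15.88, 15.65 and 15.55, again lower on each day. It fell by 0.19 ± 0.025 per day (limma adjusted p = 0.00288), and day 5 was 1.82-fold below day 0. Reads that also fit processed copies of these genes may be split or shared, since how such reads were handled was not stated in the labels.

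Per kilobase of transcript, the order of the main chaperones changed. Hsp90ab1 had 4.46 times the per-length level of Hsp90aa1 on day 5, against 1.85 times on day 0. Hspa8 had 3.52 times that of Hspa5, its ER counterpart, on day 5, against 13.6 times on day 0. Hsp90aa1 was above Hspa5 per length on day 0 (log2 14.18 and 11.95) and below it on day 5 (12.06 and 12.52). Hspa8 stayed the highest of the 7 genes drawn on each of days 0 to 5. Its ratio to Hsp90ab1 was 1.09 on day 5 and 1.56 on day 0.

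**Figure D3:**
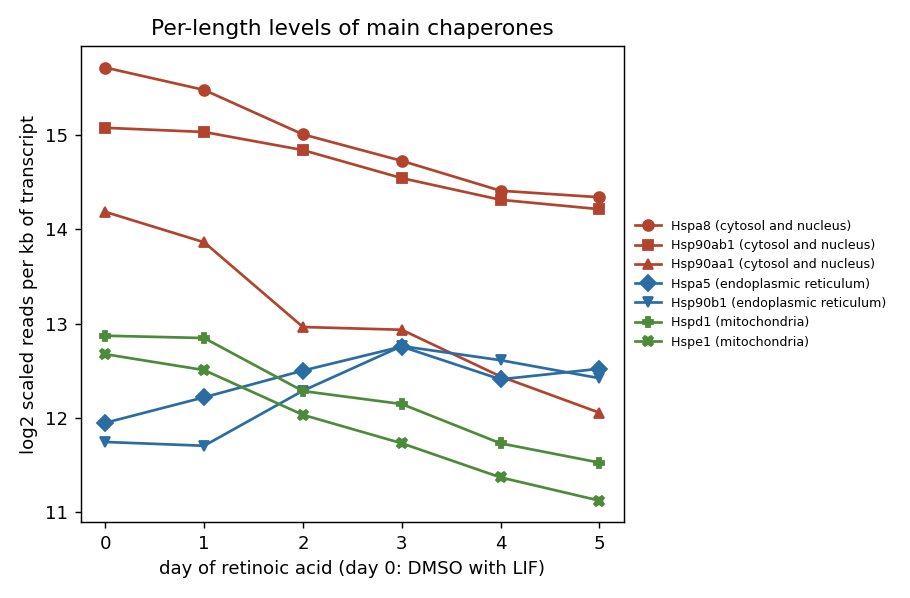
Log2 scaled reads per kilobase of transcript (y axis) for 7 main chaperone genes on days 0 to 5 (x axis), 1 library per day; colours give the compartment. Hspa8 stands at 14.34 on day 5 and 15.71 on day 0, and Hspa5 at 12.52 on day 5 and 11.95 on day 0.

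Of the HSP110-type partners of HSP70, Hsph1 and Hspa4 fell, and Hspa4l, below the filter, was not called (slope 0.11 in the fit without the filter, with levels of 7.40 on day 5 and 6.47 on day 0). Hsph1 had levels of 12.08, 11.69, 11.61, 11.53, 10.86 and 10.45, with its larger drops after day 3. It fell by 0.31 ± 0.045 per day (limma adjusted p = 0.00349) and was 3.10-fold lower on day 5 than on day 0. Hspa4 fell by 0.25 ± 0.037 per day (limma adjusted p = 0.00356) and was 2.14-fold lower. Hspa14, an HSP70 relative of the ribosome, fell by 0.21 ± 0.043 per day (limma adjusted p = 0.0087), but its slope of −0.19 without day 0 did not pass (the refits' adjusted p ran between 0.00483 and 0.055). Hspb1, the small heat shock protein known as HSP25 or HSP27, had the steepest decline of the 40 genes, with levels of 12.79, 12.03, 11.64, 11.24, 10.30 and 10.40. Days 4 and 5 stood apart from the earlier days. It fell by 0.50 ± 0.051 per day (limma adjusted p = 0.00225), and day 5 was 5.26-fold below day 0.

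The 7 CCT subunit genes fell without exception. Cct7 had levels of 14.25, 14.17, 13.49, 13.20, 12.72 and 12.71, and Cct6a had 13.29, 13.13, 12.47, 12.24, 12.05 and 11.83. In both, days 0 and 1 stood above all later days. Cct7 fell by 0.35 ± 0.040 per day, Cct6a by 0.31 ± 0.036 and Cct3 by 0.29 ± 0.031 (limma adjusted p = 0.00246, 0.00268 and 0.0024). Cct5 fell by 0.24, Cct8 by 0.19, Cct4 by 0.16 and Cct2 by 0.12 per day. The day 5 levels were between 2.90-fold (Cct7) and 1.46-fold (Cct2) below those of day 0. Cct2 was the exception in the refits: it missed the threshold without day 0 and without day 4, with slopes of −0.13 and −0.12, and with quantile-normalized libraries, at −0.077. Its leave-one-out adjusted p ran between 0.0142 and 0.0616.

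The subunits form a ring with 1 copy of each per layer. The per-length levels of the 7 taken by the name rule spanned 0.82 to 1.04 log2 units on days 0 to 5. Cct7 was the highest per length on days 0 and 1 and Cct5 on days 2 to 5. Tcp1, the remaining subunit, which the name rule does not take, fell by 0.14 ± 0.036 per day (limma adjusted p = 0.0186, not passed in each refit, with a highest p of 0.0661). Per length Tcp1 stood at 11.66 on day 0, below the lowest of the others (11.91), and within their range on days 1 to 5. Of the 13 kept genes of prefoldin, which hands clients to CCT, and of other CCT and tubulin partners, 0 rose and 4 fell, near the 26.8% of all genes kept that fell. The 4 were Pfdn4 (−0.22), Pfdn1 (−0.18), Tbcb (−0.16) and Tcp1. In the refits 1 gene rose without day 0 and 1 without day 2, beside 14.3% and 27.7% of all genes kept. The number falling was 2 without day 4, 7 with median-centred libraries and 1 after a correction for transcript length, under which 2 rose. Of all genes kept, 17.1%, 32.4% and 23.6% fell in the same order, and 25.8% rose after the length correction.

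**Figure D4:**
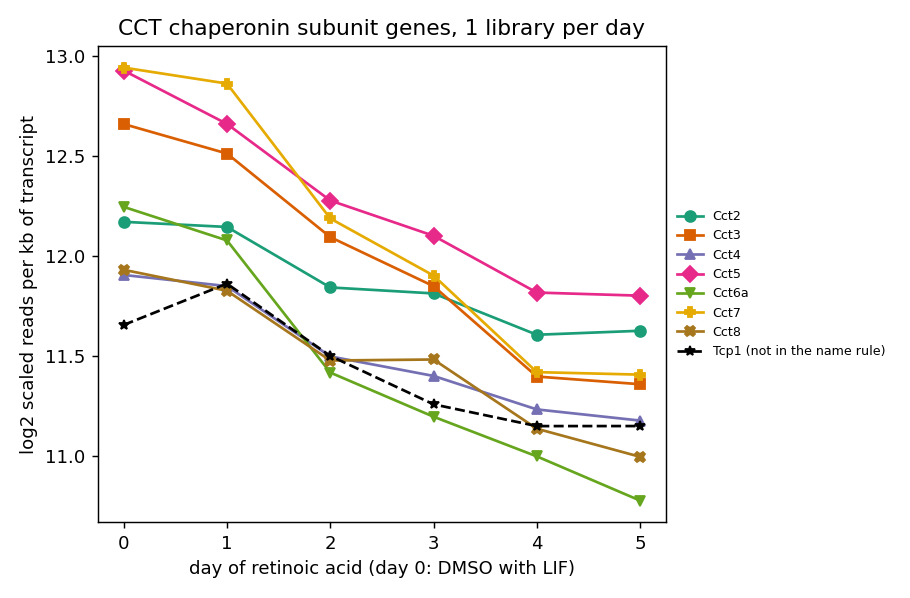
Log2 scaled reads per kilobase of transcript (y axis) of the 7 CCT subunit genes and of Tcp1 (dashed) on days 0 to 5 (x axis), 1 library per day. The 7 subunits span 1.03 log2 units on day 5 and 1.04 on day 0, and each is lower on day 5 than on day 0.

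Of 10 cytosolic J protein genes kept, 3 rose, 3 fell and 4 were not called, shares close to the 25.7% rising and 26.8% falling of all genes kept. Dnajc21, linked to ribosome assembly in human cells, had levels of 10.51, 9.23, 8.61, 8.65, 8.56 and 8.36. The fall lay almost wholly between day 0 and day 2. It fell by 0.36 ± 0.094 per day (limma adjusted p = 0.0183), 4.44-fold in all, but at −0.18 without day 0 it did not pass. Dnajc2, the ribosome-bound J protein that works with Hspa14, was lower on each day and fell by 0.20 ± 0.031 (limma adjusted p = 0.00395). Dnajc7, which binds HSP70 and HSP90, fell by 0.14 ± 0.037 (limma adjusted p = 0.0188) and was not called without day 0, day 1 or day 4, at −0.12, −0.13 and −0.14.

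Dnajc9, a J protein that chaperones histones, had levels of 9.39, 9.74, 10.14, 10.31, 10.33 and 10.45, higher on each day. It rose by 0.21 ± 0.042 per day (limma adjusted p = 0.0082), and at 0.16 without day 0 it did not pass. Dnajb1, a heat-inducible partner of HSP70, rose by 0.13 ± 0.043 (limma adjusted p = 0.0431), and passed in 1 of the 6 refits only, without day 3; its slope without the others ran between 0.11 and 0.17. It was not called with median-centred (0.097) or quantile-normalized (0.10) libraries. Dnajc5, the cysteine string protein of vesicles, rose by 0.12 ± 0.035 (limma adjusted p = 0.0295), and passed without day 2 or day 5 only; without the others its slope was between 0.10 and 0.12, and it was not called with median-centred libraries (0.088). Dnaja1 and Dnaja2, the general HSP70 partners of the cytosol, had slopes of −0.040 ± 0.033 and −0.018 ± 0.027, and Dnajb6, which holds aggregation-prone proteins soluble, had −0.0036 ± 0.041. Dnajc8, found with the spliceosome, had −0.074 ± 0.038.

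Cochaperones of HSP90 mostly fell. Of 21 kept, 13 fell and 2 rose (median slope −0.17), beside 26.8% falling and 25.7% rising of all genes kept, and 9 of the 13 passed in each refit. The largest falls were those of Fkbp5, an immunophilin of steroid receptor complexes (−0.56), Ruvbl2 and Ruvbl1, ATPases of the R2TP complex (−0.44 and −0.43), and Ahsa1, the activator of HSP90 ATPase (−0.32). The risers were Tsc1 (0.12) and Ahsa2 (0.097). Neither was called without day 0, day 1, day 3 or day 4, when 0 rose, or with median-centred libraries. Of all genes kept, 14.3%, 20.8%, 22.6% and 15.6% rose in those refits and 22.4% with median centring. Of 10 HSP70 exchange factors and other HSP70 partners, 2 rose and 3 fell, which is close to the shares of all genes kept. Bag2 was at 9.56 on day 5, against 6.40 on day 0 (slope 0.68), and Bag3 at 10.26 on day 5, against 8.46 on day 0 (slope 0.33), while Hspbp1 (−0.27), Bag4 (−0.17) and Grpel1 (−0.15) fell. Bag2 was not called without day 0 (adjusted p over the refits up to 0.0764). The number falling was 1 without day 0 or day 4, when 17.7% and 17.1% of all genes kept fell. Of 3 heat shock factor genes, Hsf1, the main activator of the heat shock response, fell by 0.16 ± 0.043 (limma adjusted p = 0.0196, not passed without day 0, day 1 or day 4, highest p 0.103), and Hsbp1, an inhibitor of Hsf1, rose by 0.16 ± 0.031 (limma adjusted p = 0.00723).

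The heat shock element was written as GAA, TTC and GAA or TTC, GAA and TTC with 2 bases of any kind between blocks. It was in 153 of 32851 promoters, or 0.466%, and counted by gene in 139 of 27025, or 0.514%. Among the 50 chaperone genes with a window it was in 3: Hspd1, Hspe1 and Dnajb6. Hspd1 and Hspe1 lie head to head and share the same bases, in which both spellings overlap. The windows are shown since the pair shares 1 promoter region and its transcripts can be compared day by day, while Dnajb6 is the 1 gene with a match among the 28 of 34 cytosolic genes that had a window. Capitals mark the matches in GRCm38.p6 sequence from RefSeq, each read on the gene's own strand.
Hspd1 (chr1:55088053-55088082, − strand): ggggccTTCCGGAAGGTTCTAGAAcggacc
Hspe1 (chr1:55088053-55088082, + strand): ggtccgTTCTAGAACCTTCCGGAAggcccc
Dnajb6 (chr5:29735822-29735894, + strand): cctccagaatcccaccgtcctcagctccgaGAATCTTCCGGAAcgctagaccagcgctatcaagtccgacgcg

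The 5 mitochondrial genes kept all fell. Hspe1, the HSP10 lid of the chaperonin, had levels of 12.30, 12.14, 11.66, 11.36, 11.00 and 10.75, and Hspd1, its HSP60 barrel, had 14.10, 14.08, 13.52, 13.38, 12.96 and 12.76. Both were lower on each day than on the day before. Hspe1 fell by 0.33 ± 0.029 per day and Hspd1 by 0.29 ± 0.032 (limma adjusted p = 0.00192 and 0.0024), with day 5 at 2.93-fold and 2.54-fold below day 0. Per length, the ratio of Hspd1 to Hspe1 stayed between 1.15 and 1.33 on days 0 to 5. Dnaja3, a J protein of the matrix, fell by 0.24 ± 0.054, Dnajc11, linked to the shaping of cristae, by 0.23 ± 0.050, and Hspa9, the import HSP70 mortalin, by 0.20 ± 0.043 per day (limma adjusted p = 0.0113, 0.0109 and 0.0105). Hspa9 had levels of 13.81, 13.76, 13.05, 13.15, 12.96 and 12.88, with the drop between day 1 and day 2. Dnaja3, Dnajc11 and Hspa9 were not called without day 0, at −0.20, −0.21 and −0.18. In that refit 2 of the 5 fell, beside 17.7% of all genes kept.

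Of 13 mitochondrial import and protease genes kept, 0 rose and 6 fell, beside 25.7% rising and 26.8% falling of all genes kept. They included Timm23, the import channel (−0.26), Trap1, the mitochondrial HSP90 (−0.25), Clpp, a matrix protease (−0.21), and Afg3l2, an inner membrane protease (−0.19). The number falling was 2 without day 0, 3 without day 1 and 3 without day 4, beside 17.7%, 20.9% and 17.1% of all genes kept in the same refits. Yme1l1, another inner membrane protease, had a slope of 0.033 ± 0.030, and Clpx, the partner of Clpp, one of −0.020 ± 0.044. Neither passed.

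On day 1 few genes stood 2-fold or more from day 0, among the chaperone genes as among all genes kept. Relative to day 0, 0 of the 40 kept were up by 2-fold or more and 1 was down by as much, beside 6.06% and 1.96% of all genes kept. That gene was Dnajc21, at −1.28 (counting interval −1.47 to −1.09), followed by Hspb1 at −0.76, Dnajb6 at −0.42, Hsph1 at −0.39 and Hsp90aa1 at −0.32. The largest positive differences were those of Hspa13 at 0.94 (0.68 to 1.21), Dnajc3 at 0.81 (0.60 to 1.02), Dnajc18 at 0.54, Dnajc14 at 0.50 and Dnajb12 at 0.37. The 5 largest positive differences thus belonged to ER genes and the 5 largest negative ones to cytosolic genes. The median step of the cytosolic genes was −0.15 into day 1, −0.33 into day 2, −0.088 into day 3, −0.17 into day 4 and −0.041 into day 5. Mitochondrial genes stepped by −0.11, −0.70, −0.13, −0.35 and −0.077, and ER genes by 0.32, 0.40, 0.086, −0.044 and −0.022. All genes kept stepped by 0.086, −0.032, −0.085, 0.034 and −0.0023.

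On day 2, 2 of the 40 were up by 2-fold or more and 3 down, beside 15.6% and 6.34% of all genes kept. The counts were 3 up and 6 down on day 3 (17.3% and 9.85% of all genes kept) and 4 up and 14 down on day 4 (20.6% and 13.3%). By day 5, 4 stood 2-fold or more above day 0 and 15 below it, beside 20.9% and 14.1% of all genes kept. The 4 were Dnajc3, Hspa13, Dnajc14 and Dnajc9. With median-centred libraries 2 remained at least 2-fold higher. A curved course, tested as the squared term of day in limma, was found in 0 of the 40 (0.0414% of all genes kept, or 3 genes; 19.9% had an unadjusted p under 0.05). The smallest adjusted p values belonged to Dnajc3 (0.075), Hspa13 (0.103), Dnajc21 (0.146), Dnajc10 (0.191) and Dnajc14 (0.227), whose levels moved mainly before day 3.

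Added up, chaperone transcripts took a smaller part of all reads with time. Their share was 2.92%, 2.65%, 2.13%, 1.94%, 1.64% and 1.56% on days 0 to 5 of the reads on the transcripts used. Cytosolic genes made up 1.14% on day 5 (Wilson interval 1.14 to 1.15), against 2.46% on day 0 (2.45 to 2.47). Mitochondrial genes made up 0.123% on day 5 (0.121 to 0.125), against 0.268% on day 0 (0.264 to 0.271). The ER genes held 0.162%, 0.183%, 0.251%, 0.307%, 0.273% and 0.267% on days 0 to 5, highest on day 3. These shares weight each gene by its reads, and the intervals cover counting error only.

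The 22 genes below the filter held some of the widest changes. Fitted without the filter, 9 of them rose, 1 fell and 12 were not called, beside 25.9% rising and 22.1% falling of all 12071 symbols. Among the risers were the ER J proteins Dnajb9, Dnajc1 and Dnajc25, and Dnajb9, an inhibitor of the stress sensor Ire1, had levels of 7.83, 7.95, 8.52, 8.57, 8.84 and 9.01, higher on each day. The other risers were Dnajb2, Dnajb4, Dnajb5, Hspa2 and Hspb8 of the cytosol, and Hspb11, an intraflagellar transport protein. Dnajb4 was 11.3-fold higher on day 5 than on day 0 (472 and 26 reads), Hspb8, a partner of Bag3, 7.87-fold (708 and 56 reads), and Hspb11 6.29-fold (91 and 9 reads). Hspa2, an HSP70 best known from the testis, had 3, 8, 5, 26, 88 and 174 reads on days 0 to 5, a day 5 ratio of 36.1-fold with a log2 counting interval of 3.60 to 7.47. Per length it remained 252-fold below Hspa8 on day 5. Dnajc6, the clathrin-uncoating auxilin, had levels of 9.12, 6.57, 6.24, 5.75, 6.14 and 6.01. It was 5.86-fold lower on day 1 than on day 0 and 8.60-fold lower on day 5 than on day 0, and its line did not pass. Dnajc19, a subunit of the mitochondrial import motor, was the gene that fell (7.20 on day 5, against 8.59 on day 0). Dnajb14, Dnajc4, Dnajc12, Dnajc15, Dnajc17, Dnajc24, Dnajc27, Dnajc30, Hspa4l, Hspa12a and Hspa12b were not called. Dnajc13, an endosomal J protein above the filter, had a slope of −0.021 ± 0.031. Hspa1a and Hspa1b fit the name rule but were not among the 62 symbols found, so they have no values here.

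Day 6 is described apart, since the length of a transcript moved with its difference from day 5, in the 40 chaperone genes (rho −0.71) as in all genes. The short Hspe1 (772 nt) and Hspb1 (906 nt) were 6.05-fold and 5.07-fold higher on day 6 than on day 5. In all 13 of the 40 were up by 2-fold or more from day 5 and 12 down, beside 18.6% and 51.7% of all genes kept. Of the 12, 9 were ER genes, and none of the 13 was. The ER genes kept were also longer, with a median of 3998 nt, against 2189.5 nt for the cytosolic genes and 3043.5 nt for all genes kept. The per-length ratio of Hspd1 to Hspe1 was 0.253 on day 6, against 1.32 on day 5. Set against a loess curve of the difference on length over all genes, 23 of 24 cytosolic genes and 5 of 5 mitochondrial genes lay above it, and 2 of 10 ER genes did, beside 51.6% of all genes. The median distance was 0.96 for cytosolic, 0.41 for mitochondrial and −1.29 for ER genes. Marker levels moved as well: the extraembryonic endoderm sum was 13.55 on day 6, against 17.64 on day 5, with 9 of 9 genes lower, and the fibroblast sum 10.26 on day 6, against 14.25 on day 5, with 6 of 7 lower. The neural progenitor sum was 9.26 on day 6 and 12.10 on day 5 (4 of 4 lower), the stem cell sum 10.45 and 11.11 (6 of 8 lower), and the neuron sum 11.94 and 11.22 (1 of 3 lower). Their part in the day 6 result was not tested. The lowest distances from the length curve were those of Hspa5 (−2.94), Hsp90b1 (−2.85), Dnajb12 (−2.68), Dnajc16 (−1.64) and Dnajb11 (−1.40). Hspa5 was at 10.22 on day 6, against 13.87 on day 5, or 435 and 12515 reads, and Hsp90b1 at 10.07 on day 6, against 13.90 on day 5. The highest distances from the curve were those of Dnaja1 (4.04), Dnajc18 (2.19), Cct7 (1.87), Cct8 (1.64) and Hspa4 (1.64). The listed transcripts of Dnaja1 were 5488 to 5631 nt long, with near-equal reads in each. With 1 library, whether day 6 differs by its cells, its RNA or its preparation cannot be told apart.

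**Figure D5:**
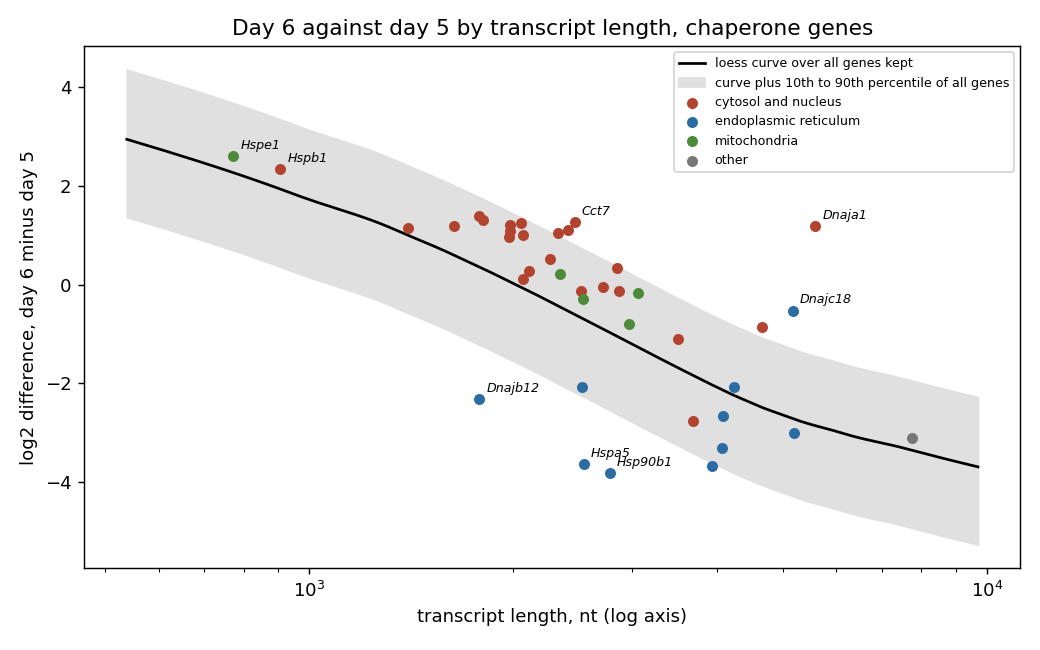
Log2 difference of day 6 from day 5 (y axis) against transcript length in nt (x axis, log scale) for 40 chaperone genes, coloured by compartment. The line is a loess curve over all 7242 genes kept and the band adds the 10th to 90th percentile of their distances; Hspa5, Hsp90b1 and Dnajb12 lie farthest below the curve and Dnaja1 farthest above it.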

How the data were processed

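Stranded libraries were made from total RNA after removal of ribosomal RNA, per the labels' protocols. Alignment with BWA 0.7.3 to mm9 is named in the submitters' processing notes. How reads were counted and scaled, with which strand setting and annotation, was not stated. Values were deposited by the authors as log2 of scaled reads for each RefSeq transcript, with transcript length in nt as a further deposited column. Raised from the log, all values up to 1000 reads were within 0.05 reads of a whole multiple of 1 read in each of the 7 libraries, so reads could be recovered. A whole number added before scaling would look the same. The lowest value was taken as 1 read. Transcripts of a gene, near-identical copies and overlapping or antisense genes may share reads.

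Genes with a mean over 7 libraries above the 40th percentile (8.40) were kept. Lines on day were fitted over the 6 libraries of days 0 to 5 in R 4.3.3 by limma 3.58.1, with its trended empirical Bayes variance and 4 residual degrees of freedom. Benjamini-Hochberg adjustment ran over the 7242 genes, with calls at an adjusted p under 0.05. Differences between 2 days have no test; their 95% exact binomial (Clopper-Pearson) intervals, and the Wilson intervals of shares, cover counting error only. The day 6 curve was loess with span 0.5. Python 3.11.15, pandas 2.3.3, SciPy 1.17.1 and matplotlib 3.10.9 did the rest, and the fits were tested on simulated data. Positions of genes are in mm9 and those of promoter windows in GRCm38.p6; both count from 1.

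The members, the compartments and the 7 pathway lists were chosen with earlier results of these data known. Named with values were up to 8 called genes per compartment and direction, the 5 smallest p of the squared term, the 5 largest differences in each direction on day 1 and from the day 6 curve, fixed examples, genes below the filter at least 4-fold apart on day 5, and up to 4 called genes per list and direction. Others named were chosen after their values were seen. Alternatives were each library left out, all 7 libraries, no filter, a filter on days 0 to 5, median centring, quantile normalization, a length correction, the mean of all transcripts of a symbol, ranks, and a 4-fold limit.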

Additional observations from a re-analysis of the deposited data

How the results depend on the processing

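With all 7 libraries, day 6 included, 390 genes of the table were called in place of 3801, and 0 chaperone genes rose and 3 fell. Among the chaperone genes called over days 0 to 5, 7 slopes then changed sign. They were those of Hspa13 (−0.12), Hsp90b1 (−0.27), Dnajc10 (−0.17), Dnajc14 (−0.071), Dnajc3 (−0.044), Dnajc5 (−0.20) and Cct2 (0.013). Of the 10 ER genes kept, called or not, 9 had a slope below 0 (median −0.19), as had 18 of 24 cytosolic and 5 of 5 mitochondrial genes. Day 6 moves with transcript length, and the cause was not tested. Leaving out 1 library called 2319 to 3965 genes, with 1 to 8 chaperone genes rising and 15 to 22 falling. Without the filter 5794 genes were called, more genes being tested, and 18 chaperone genes rose. Median-centred libraries gave 5 rising. A length correction gave 5 curved genes in place of 3. Of the 40 genes, 19 were at least 2-fold apart between day 5 and day 0, and 3 at least 4-fold. Their median day 6 minus day 5 difference was 0.027, or 0.58 from the length curve and 1.08 after centring. Of the 40 slopes, 4 calls were lost with median centring, 4 lost and 1 gained with quantile normalization and 1 lost with the length correction; the filter on days 0 to 5, the mean of all transcripts and no filter kept the 40 calls. No paired analysis was possible because each day had 1 library. Low genes are limited by depth, as with 3 reads of Hspa2 on day 0.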
